A study of Homo sapiens with 3 samples.

Results

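The chromosome 19 zinc finger genes described here are the protein-coding genes of human chromosome 19 whose symbol is ZNF followed by a number, as annotated by GENCODE on hg19. There are 240 of them among 1480 protein-coding genes of the chromosome, and among 20098 on chromosomes 1 to 22 and X. Chromatin came from MDA-MB-231, an established human triple-negative breast cancer line grown without any added treatment. Cross-linking took 10 min in 1% formaldehyde, and 4 µg of an antibody to BMAL1 or to MAX was used for each immunoprecipitation. There was 1 library for each antibody and 1 input library that served both as control, so no spread between replicates exists for any value.

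Most of these genes encode proteins with arrays of C2H2 zinc fingers, each finger reading a few bases of DNA, and many also carry a KRAB domain, which recruits the corepressor TRIM28 and through it histone H3 lysine 9 methylation. They arose by repeated tandem duplication, lie in dense clusters, and many of them repress transposable elements. MAX is the obligate partner of MYC, MNT and related proteins, and BMAL1 is the partner of CLOCK. Dimers of either kind recognise the E-box, whose canonical form is CACGTG.

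The deposited lists held 756 BMAL1 peaks and 13650 MAX peaks, of which 63 and 968 lay on chromosome 19. Depth after filtering was 13866783 tags for BMAL1, 11545865 for MAX and 29308882 for the input. A gene was counted as bound when the summit of a peak lay within 1 kb of a transcription start (TSS), taken over all transcripts of the gene. Fold enrichment is the pileup, the number of extended fragments stacked at the summit, over the local input background, and a gene with several peaks takes its highest value. A gene without a listed peak is one where no peak passed the caller's cutoff at this depth.

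MAX peaks were found at the TSSs of 127 of the 240 ZNF genes, a share of 52.9% (Wilson 95% interval 46.6 to 59.1), where 36.4% of all protein-coding genes had such a peak. The other protein-coding genes of chromosome 19 had a MAX peak in 505 of 1240 cases, or 40.7% (38.0 to 43.5). These intervals do not overlap, and they cover counting error only, since genes are not replicates and duplicated genes share sequence. The order rested on weak peaks. With peaks of a -log10 p-value of 12 or more, 27.5% of the ZNF genes and 28.0% of the other genes were bound. ZNF genes on other chromosomes stood near the chromosome 19 members, with 117 of 236 bound (49.6%, 43.3 to 55.9). Of 19 other zinc finger genes of chromosome 19, with ZFP, ZSCAN, ZIM and ZBTB symbols plus ZIK1 and PEG3, 9 were bound.

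BMAL1 was found at none of them. Peaks of BMAL1 lay at the TSSs of 0 of 240 ZNF genes, where 1.85% of all protein-coding genes had one, and a count of 0 allows a share of up to 1.25% when taken as 3 genes. Among the other genes of the chromosome, 47 of 1240 had a BMAL1 peak (3.79%, 2.86 to 5.00). On other chromosomes 7 of 236 ZNF genes had a BMAL1 peak (2.97%, 1.44 to 5.99), and this interval overlaps that of the members (0 to 1.58%) only at its lower end. ZNF84 on chromosome 12 had the highest of these, with a fold enrichment of 15.58 and a summit 26 bp upstream of the TSS.

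BMAL1 peaks also lay far from most members. The BMAL1 summit closest to any member TSS lay 11841 bp from ZNF763, with a fold enrichment of 13.37, and the next were 14955 bp from ZNF628 and 25695 bp from ZNF541. Within 100 kb of a TSS, a BMAL1 summit was present for 20 of 240 members (8.33%) and for 412 of 1240 other genes (33.2%). The median member was 914521 bp from the nearest BMAL1 summit, and the range ran up to 5688910 bp. Most members lie in clusters, where neighbours share a nearest BMAL1 summit, so these distances do not come from 240 separate places. The density of other genes around the members was not taken into account. None of the 134 MAX peaks at members overlapped a BMAL1 peak, whereas 32 of the 495 MAX peaks at other chromosome 19 genes did (6.46%, 4.62 to 8.98).

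Promoter CpG content was higher in bound than in unbound genes of both groups, with wide overlap among members. The shares of ZNF genes and other chromosome 19 genes stood apart beyond their intervals only where CpG was lowest. CpG observed over expected was measured in 1 kb centred on the canonical TSS, with a median of 0.712 in members and 0.654 in the other genes. Bound members had a median of 0.733 (quartiles 0.651 and 0.784) and unbound members 0.675 (0.582 and 0.751). For the other genes the medians were 0.762 (0.666 and 0.850) and 0.455 (0.269 and 0.708). When all chromosome 19 coding genes were ranked by this measure and cut into equal tertiles, 53 of 82 members in the top tertile were bound (64.6%, 53.8 to 74.1), beside 66.9% of the other genes. In the middle tertile the shares were 49.2% and 48.6%. In the bottom tertile 10 of 28 members (35.7%, 20.7 to 54.2) and 53 of 465 other genes (11.4%, 8.82 to 14.6) were bound. Only 28 of the 240 members fell in that bottom tertile, against 465 of 1240 other genes, and weighting the other genes to the members' tertiles gave a share bound of 50.5% for them, beside 52.9% for the members.

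**Figure D1:**
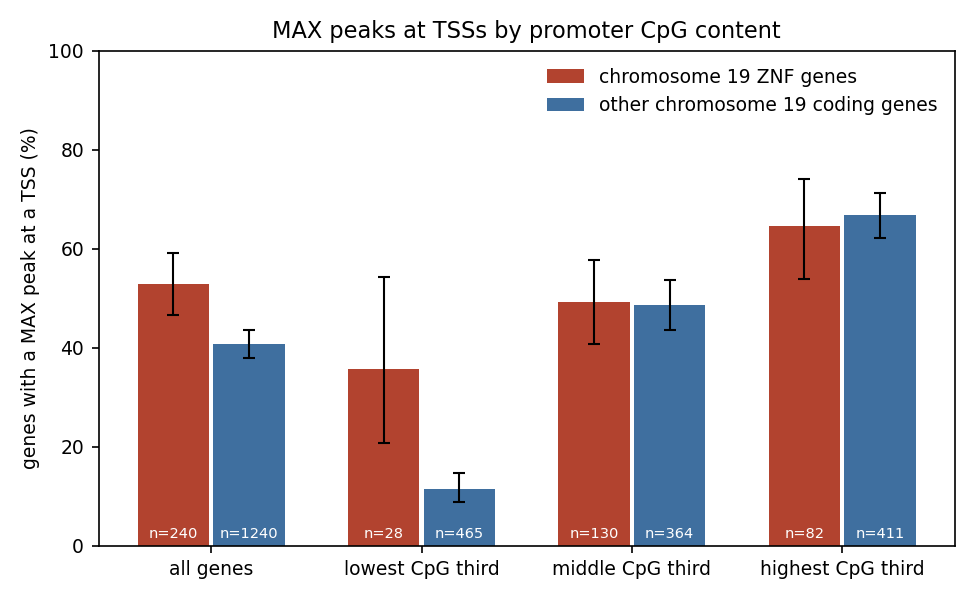
Share of genes with a MAX peak within 1 kb of a TSS (%), for the 240 ZNF genes and the 1240 other protein-coding genes of chromosome 19, overall and by tertile of promoter CpG observed over expected. Bars give the share, error bars the Wilson 95% interval, and n the number of genes. The 2 groups stand apart in the bottom tertile (35.7% and 11.4%) and lie within each other's intervals in the middle and top ones.

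A coding TSS close by on the opposite strand went with binding among the other genes, while among members the intervals overlapped. The neighbour could lie at any TSS of the gene, in either orientation, so the MAX peak need not be at the same TSS. ZNF529, for example, was bound and had ZNF382 as such a neighbour, whose nearest MAX summit lay 31633 bp away. Of the members, 30 had the TSS of a coding gene on the opposite strand within 1 kb, and 20 of these were bound (66.7%, 48.8 to 80.8). Of the other genes with such a neighbour 182 of 258 were bound (70.5%, 64.7 to 75.8), so members were not higher there. Without it 107 of 210 members were bound (51%, 44.2 to 57.6), and 323 of 982 other genes (32.9%, 30.0 to 35.9). The number of annotated TSSs gives a gene more chances to be counted. With only 1 annotated TSS, 8 of 17 members (47.1%, 26.2 to 69.0) and 36 of 180 other genes (20.0%, 14.8 to 26.4) were bound. With 2 to 5 the shares were 48.3% (39.4 to 57.3) and 29.4% (25.4 to 33.7). With 6 or more, which holds 107 members, they were 58.9% (49.4 to 67.7) and 55.5% (51.5 to 59.4), and the intervals overlapped.

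Bound ZNF genes carried slightly weaker MAX peaks than the other bound genes of the chromosome, and the 2 intervals of the median met at 10.2. The median fold enrichment was 9.65 over the 127 bound members (95% interval 9.14 to 10.2, quartiles 7.86 and 12, range 4.71 to 33.99). Over the 505 other bound genes of the chromosome it was 10.6 (10.2 to 11.2, quartiles 8.46 and 14.2), and over all bound genes 10.8. A fold enrichment of 10 or more was reached by 57 of 127 members (44.9%, 36.5 to 53.6) and 298 of 505 other genes (59.0%, 54.7 to 63.2), and of 15 or more by 13 members (10.2%, 6.08 to 16.7) and 114 other genes (22.6%, 19.1 to 26.4). At 20 or more the shares were 4.72% (2.18 to 9.92) and 7.72% (5.70 to 10.4), with overlapping intervals. The median pileup was 18 fragments at members and 20 at the others, and the input background was 1.77 and 1.89 fragments, so the input was no higher under member peaks.

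MAX summits at members lay close to the TSS. The strongest peak of a bound member had its summit a median of 66 bp from the nearest TSS (95% interval 52 to 97). The median was 164 bp (138 to 186) at other chromosome 19 genes. At ZNF genes elsewhere it was 92 bp (61 to 121), an interval that overlaps that of the members. Within 100 bp of the TSS were 77 of 127 member summits (60.6%, 51.9 to 68.7) and 186 of 505 summits of other genes (36.8%, 32.7 to 41.1). Summits fell on both sides of the start, with 67 upstream, 58 downstream and 2 on the annotated base itself. By the annotation of the member itself, 50 summits were in an untranslated region, 33 in an intron, 1 in a coding exon and 43 upstream or outside its transcripts.

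**Figure D2:**
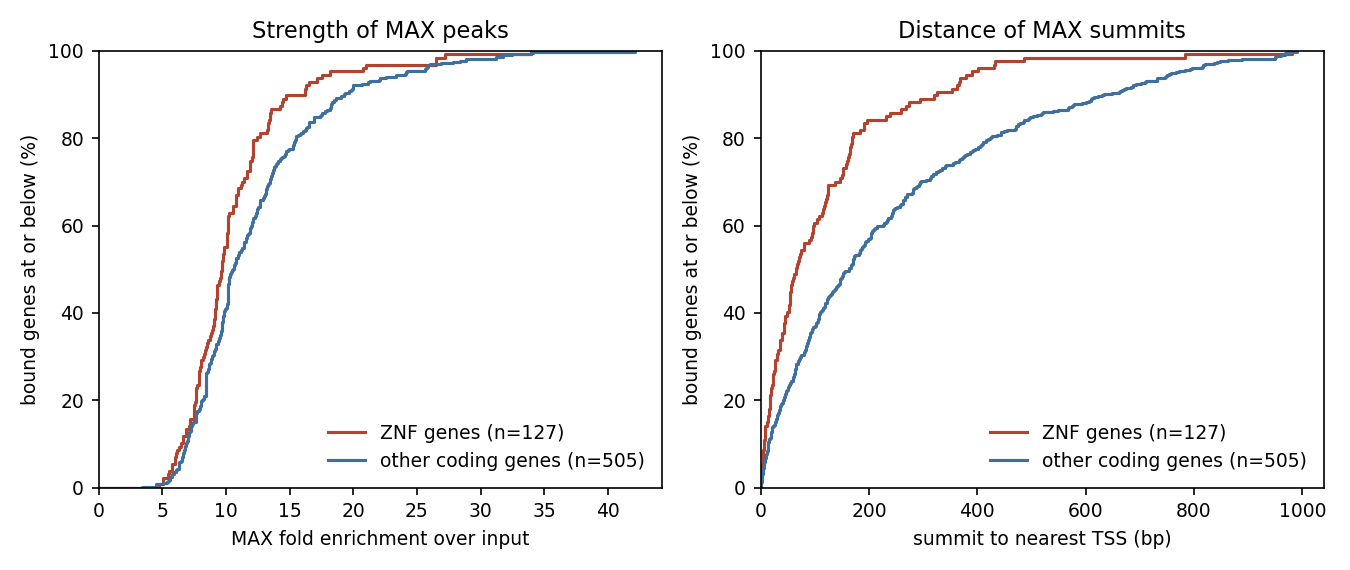
Cumulative share of bound genes (%) by MAX fold enrichment over input (left) and by distance in bp from the summit of the strongest peak to the nearest TSS (right), for 127 ZNF genes and 505 other coding genes of chromosome 19. The ZNF curve lies to the left in both panels, with medians of 9.65 against 10.6 for fold enrichment and 66 against 164 bp for distance.

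The 1 kb limit decided few calls. The bound members with the most distant nearest summits were ZNF626 at 980 bp and ZNF574 at 487 bp, and the closest unbound ones were ZNF580 at 1458 bp, ZNF526 at 2501 bp and ZNF524 at 3494 bp. The 113 unbound members had their nearest MAX summit at a median of 34991 bp, and for 9 of them it lay within 10 kb. Inside gene bodies, more than 1 kb from any TSS of the gene itself, members had 10 MAX peaks over 6.81 Mb (1.47 per Mb). Bodies of the other chromosome 19 genes had 255 over 23.6 Mb (10.8 per Mb). Such a peak could still lie near a TSS of another gene, and a rate for the whole genome was not calculated. BMAL1 had 0 and 18 peaks in the same gene bodies.

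The strongest MAX peak at a member was at ZNF473, a zinc finger protein that takes part in the processing of histone pre-mRNA. Its summit, with a pileup of 49 and a fold enrichment of 33.99, lay 18 bp downstream of the TSS in the peak chr19:50528536-50529674, a region that also holds the TSS of the kinase gene VRK3. No CACGTG was present within 100 bp of this summit. ZNF473 lies outside the clusters, and its peak was stronger than 99.7% of all MAX peaks in the list.

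ZNF529 came next, with a pileup of 45 and a fold enrichment of 27.20 at a summit 104 bp downstream of its TSS. ZNF565 and ZNF146 are transcribed away from each other and followed with 1 shared peak, of pileup 47 and fold enrichment 26.51. Its summit lay 71 bp downstream of the TSS of ZNF146 and 96 bp upstream of that of ZNF565. ZNF146 is made almost entirely of zinc fingers and lacks a KRAB domain. The 3 genes are close neighbours in the same cluster, and each of the 2 peaks had CACGTG within 6 bp of its summit.

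The rest of the 12 strongest peaks, which lie at 13 members, were well below these. ZNF331, an imprinted gene that is rearranged in thyroid adenomas, had a fold enrichment of 20.97, and ZNF8 had 20.77. ZNF616 had 18.19, ZNF544 17.51, ZNF787 17.13, ZNF302 16.54, ZNF470 16.30, ZNF547 16.22 and ZNF566 16.18. ZNF566 had the highest pileup of any member, 51 fragments, over an input background of 3.15 fragments. At the other end stood ZNF426 with 4.71, ZNF180 and ZNF805 with 5.08, ZNF417 with 5.44 and ZNF443 with 5.50, each with a pileup between 13 and 18.

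**Figure D3:**
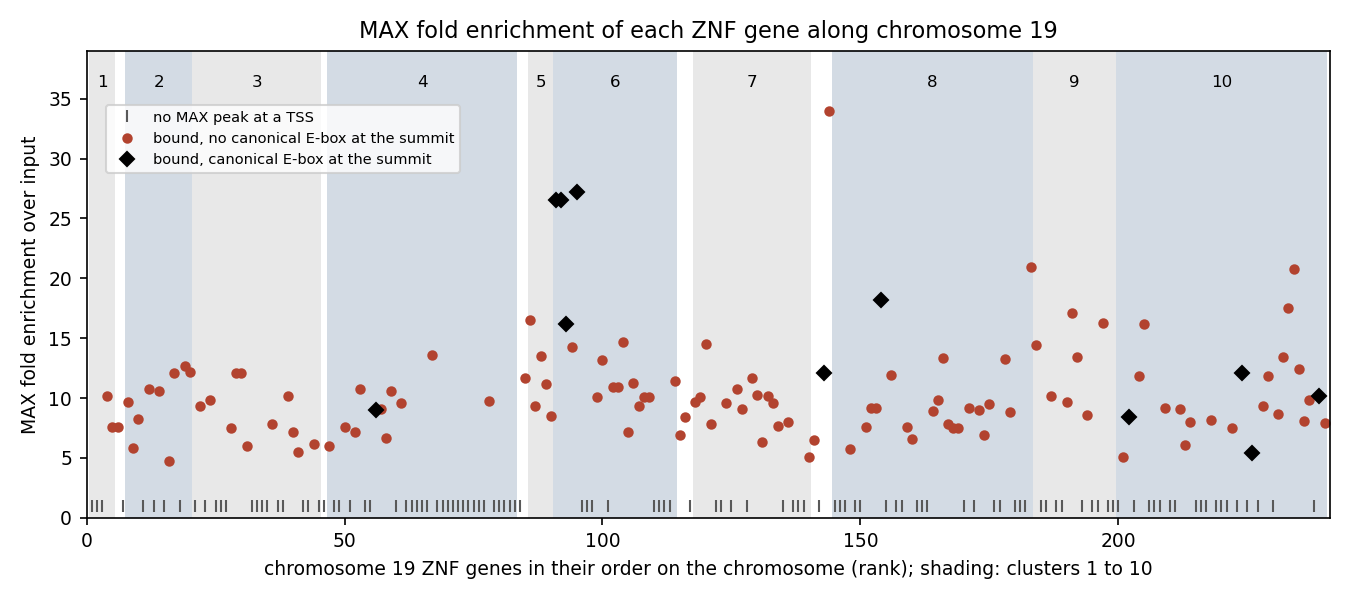
MAX fold enrichment over input (y axis) of each of the 240 ZNF genes in their order along chromosome 19 (x axis, rank), with clusters 1 to 10 shaded. Points and diamonds are bound genes without and with CACGTG at the summit of their strongest peak, and ticks near 1 on the y axis only mark the 113 genes without a MAX peak; the tallest point is ZNF473 at 33.99, and the 4 diamonds in cluster 6 are ZNF565, ZNF146, ZNF566 and ZNF529.

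The canonical E-box was scarce at these peaks. CACGTG, which reads the same on both strands, was sought in the 200 bp centred on each summit, counting each peak once. It was present at 12 of the 134 MAX summits of members, or 8.96% (5.20 to 15). The share was 109 of 495 at other chromosome 19 genes (22%, 18.6 to 25.9), 19 of 129 at ZNF genes elsewhere (14.7%, 9.64 to 21.9), and 20.5% of 7285 summits at all coding TSSs. In windows 2 kb to either side it was present in 1.12% for members and 2.12% for other genes, so the summits stood above their flanks in both groups. The flanks were not matched to the summits in CpG content.

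The E-boxes at these summits are shown because CACGTG is the sequence MAX dimers recognise, and those at the strongest peaks of 11 members are printed. Over whole peaks, 20 of 134 held CACGTG (14.9%). Capitals mark CACGTG in 30 bases of hg19, written 5′ to 3′ on the plus strand.
ZNF565 and ZNF146, chr19:36706066-36706095: ggcccctgggtcCACGTGgcgcgaaagtag
ZNF529, chr19:37064078-37064107: ggctcccggctcCACGTGgaccgacctcgc
ZNF566, chr19:36980132-36980161: cacacaatgccgCACGTGgtcctgctccct
ZNF616, chr19:52642110-52642139: cagtcccagcacCACGTGgctctgtcagcc
ZNF114, chr19:48775201-48775230: gcacgaatgaccCACGTGttcagaccccga
ZNF587, chr19:58361173-58361202: agaaggcatttcCACGTGtgcacgtaacgt
ZNF417, chr19:58427985-58428014: acgttacgtgcaCACGTGgaaatgccttct
ZNF324, chr19:58978345-58978374: acaggcgggaacCACGTGacccggaaggct
ZNF626, chr19:20843365-20843394: tggtactacaggCACGTGccaacacgccga
ZNF460, chr19:57791243-57791272: acgggaagtccaCACGTGgcgaacgcgaag

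The E-box of ZNF565 and ZNF146 lay 1 bp from the summit, that of ZNF529 6 bp, that of ZNF460 7 bp and that of ZNF626 16 bp. The remaining ones were 24 to 96 bp away, including second peaks at ZNF331 and ZNF792. Of the 12 member peaks with a fold enrichment of 15 or more 4 had CACGTG at the summit, and of the 122 weaker ones 8 did. Peaks at members had a median fold enrichment of 12.1 with CACGTG (12 peaks) and 9.32 without (122 peaks), and the other chromosome 19 genes had 13.3 and 9.87.

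ZNF417 and ZNF587 are close paralogs, known for repressing endogenous retroviruses of the HERV-K group, and the 30 bases printed for each are exact reverse complements. Their MAX peaks had fold enrichments of 5.44 and 12.09 and pileups of 15 and 20. In the 500 bp around their starts, 18% and 21.1% of the 51-base words, the tag length, occurred again on chromosome 19, and the part of such repeats in these 2 values was not tested.

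Looser forms of the E-box differed less between the groups. CACGTT or AACGTG was present at 4.48% of member summits (2.07 to 9.42) and 4.24% of the others (2.79 to 6.40), and CACGCG or CGCGTG at 15.7% (10.5 to 22.8) and 21.0% (17.7 to 24.8). Any of these forms or CACGTG was present at 26.9% (20.1 to 34.9) and 42.2% (37.9 to 46.6). The canonical E-box was scarce in the promoters as well, where 12 of 240 members (5.00%, 2.88 to 8.53) and 157 of 1240 other genes (12.7%) had CACGTG within 250 bp of the canonical TSS. Of the 12 members with such a promoter E-box 8 were bound, and of the 228 without it 119.

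**Figure D4:**
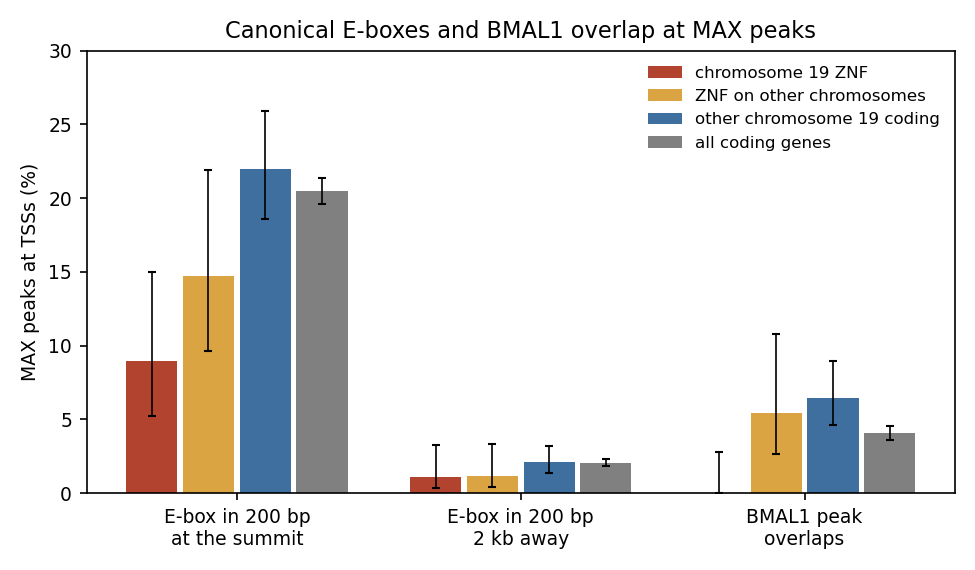
Share of MAX peaks at TSSs (%) that hold a canonical E-box in 200 bp at the summit, in 200 bp windows 2 kb away, or that overlap a BMAL1 peak, for 4 groups of genes. Bars give the share and error bars the Wilson 95% interval; chromosome 19 ZNF genes have the lowest share at the summit (8.96%) and no overlap with BMAL1.

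Binding was uneven along the chromosome. Members whose neighbouring canonical TSSs were at most 500 kb apart were joined into clusters, and runs of 5 members or more gave 10 clusters, with 12 members outside. Clusters 1 to 4 lie on the short arm and hold 80 members, of which 33 were bound (41.2%, 31.1 to 52.2). Clusters 5 to 10 lie on the long arm and hold 148 members, of which 87 were bound (58.8%, 50.7 to 66.4). The median promoter CpG observed over expected was 0.608 in the first set and 0.740 in the second. Within the middle CpG tertile 19 of 49 members of the first set (38.8%) and 41 of 74 of the second (55.4%) were bound. The other tertiles showed little difference. In the bottom one 7 of 20 (35.0%) and 2 of 6 (33.3%) were bound, and in the top one 7 of 11 (63.6%) and 44 of 68 (64.7%). Cluster 1 had a median CpG of 0.848 with 2 of 5 members bound, and the part of CpG in the difference between the arms was not tested.

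Cluster 10, at chr19:57702868-58992597, held the most bound members, 23 of 41 (56.1%, 41.0 to 70.1), among them ZNF8, ZNF544 and ZNF547 named above. ZNF274, which recruits the histone methyltransferase SETDB1 to the ends of other zinc finger genes, had a fold enrichment of 13.40 there. ZNF497 had 12.43, ZNF587 12.09, ZNF304 and ZNF606 11.85, ZNF324 10.15, ZNF584 9.87, ZNF256 9.33, ZNF772 9.20 and ZNF549 9.07. ZNF329 had 8.71, ZNF460 8.38, ZNF551 8.21, ZNF837 8.06, ZNF416 7.99, ZNF446 7.88, ZNF586 7.52 and ZNF550 6.09, and ZNF417 and ZNF805 closed the list. The fold enrichment within this single cluster thus ran from 5.08 to 20.77, with a median of 9.20. Cluster 1 held the fewest, ZNF57 with 10.15 and ZNF77 with 7.57, of 5 members.

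Cluster 4 had the lowest share, 11 of 37 members (29.7%, 17.5 to 45.8), and was picked out after its values were seen. It spans chr19:19779605-24312770, next to the centromere, and its median promoter CpG of 0.538 was the lowest of the 10. The bound genes were ZNF43 with a fold enrichment of 13.56, ZNF90 with 10.79, ZNF430 with 10.58, ZNF724 with 9.76, ZNF431 with 9.57, ZNF66 with 9.11 and ZNF626 with 9.03. ZNF253 had 7.62, ZNF682 7.19, ZNF85 6.65 and ZNF101 5.97. Its 26 unbound genes were at least 20529 bp from any MAX summit, with a median of 125348 bp. They include ZNF91 and ZNF93, named here for their known role as repressors of SVA and LINE-1 retrotransposons, whose nearest MAX summits were 20529 bp and 34991 bp away.

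By CpG tertile, 6 of its 18 members in the bottom one were bound (33.3%, beside 35.7% of all members there), 5 of 18 in the middle one (27.8%, beside 49.2%) and 0 of 1 in the top one. Cluster 5, also picked out after its values were seen, had all 5 members bound: ZNF302 with 16.54, ZNF599 with 13.48, ZNF30 with 11.17, ZNF181 with 9.31 and ZNF792 with 8.51. In cluster 6, which holds ZNF529, ZNF565 and ZNF146, 16 of 24 members were bound (66.7%, 46.7 to 82.0), and so were 6 of 8 other coding genes lying between them. Such genes were also often bound in cluster 7 (8 of 13) and cluster 10 (14 of 24). They were seldom bound in clusters 2 (3 of 15), 3 (3 of 13), 4 (0 of 3), 8 (3 of 15) and 9 (4 of 24). With 5 to 41 members a cluster, most intervals of the members' shares overlap.

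**Figure D5:**
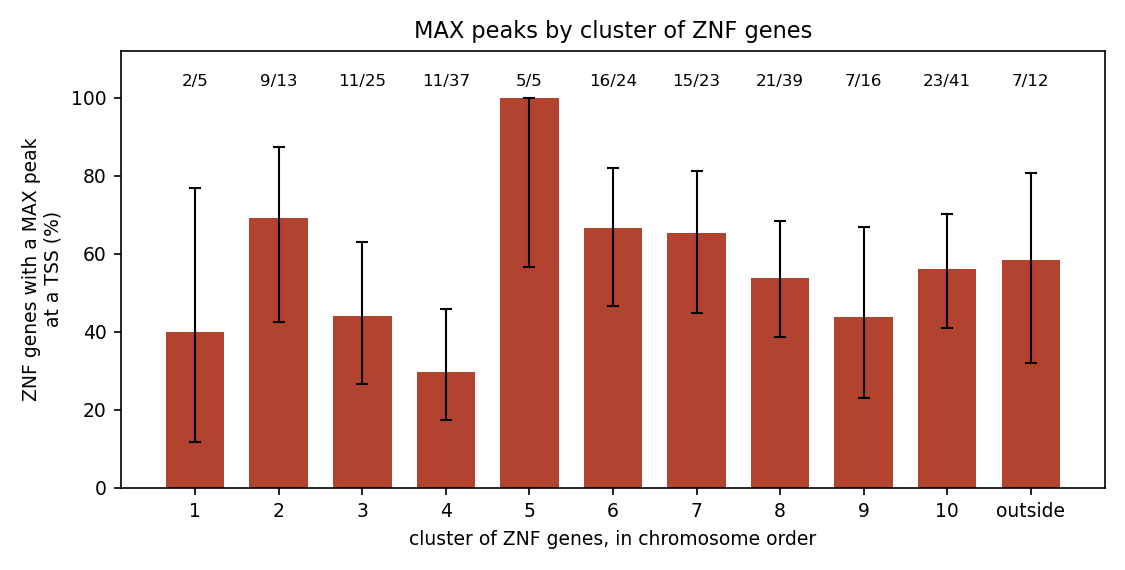
Share of ZNF genes with a MAX peak at a TSS (%) in each of 10 clusters in chromosome order and outside them, with the number bound over the number of members printed above. Error bars are Wilson 95% intervals; cluster 4 is lowest with 11 of 37 and cluster 5 has all 5 of 5.

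Several members shared a peak or had more than 1. Of the 134 MAX peaks at members, 110 lay at a single member and no other coding gene, 5 lay at a pair of members, and 19 also lay at a coding gene that is no member. The pairs with a common peak were ZNF565 and ZNF146, ZNF829 and ZNF568, ZNF569 and ZNF570, ZNF432 and ZNF841, and ZNF28 and ZNF468. More than 1 peak was found at 11 members, namely ZNF331, ZNF347, ZNF43, ZNF432, ZNF460, ZNF576, ZNF584, ZNF611, ZNF787, ZNF792 and ZNF83. At ZNF331 the 2 peaks lay at separate starts with fold enrichments of 20.97 and 12.69, and at ZNF43 they were 12.31 and 13.56. ZNF584 had 3 peaks, with 9.87, 8.83 and 7.40.

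The summits of members were richer in other short sequences. All words of 6 and of 8 bases were counted on both strands in the same 200 bp windows, and the words with the largest difference in percentage points from the other chromosome 19 genes were listed. They were thus chosen by their values in these windows, and members of a cluster share them by descent, so the counts are descriptions. The leading word of 6 was CCGGAA or its reverse complement TTCCGG, the core bound by ETS factors. It was present at 51 of 134 member summits (38.1%), 101 of 495 others (20.4%), 36.4% of the summits at ZNF genes elsewhere and 19.9% of all 7285.

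CCGGAA was a property of the member promoters whether MAX was called there or not. Within 250 bp of the canonical TSS, it was present in 64.2% of members (57.9 to 70.0) and 28.8% of other genes. Among bound members the share was 63.8% (55.1 to 71.6) and among unbound ones 64.6% (55.4 to 72.8). For other chromosome 19 genes it was 42.2% with a MAX peak (37.9 to 46.5) and 19.6% without (16.9 to 22.6). The copy closest to the start lay within 100 bp of it in 123 of 154 member promoters.

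Of the words of 8, TCCAATCA was common in 3 of the 4 short-arm clusters. It holds the CCAAT box, a promoter element bound by NF-Y. It was found in 60 of 240 member promoters, in cluster 1 (4 of 5), cluster 3 (20 of 25) and cluster 4 (36 of 37), and in 0 of the 13 members of cluster 2 and 0 of the 148 members of clusters 5 to 10. Of its 89 copies 87 read in the direction of the gene, and the copy closest to the start was upstream in all 60 promoters, at a median position of -53.5 bp (quartiles -61.0 and -49.0). Among other chromosome 19 genes 17 of 1240 had it (1.37%), and it was present at 11 of 134 member summits and 0.879% of all 7285. Of the 60 members with the word, 22 were bound (36.7%), beside 41.2% of all members of clusters 1 to 4. The examples come from clusters 1, 3 and 4 and show the bases that members share around the word, in capitals, 5′ to 3′ on the plus strand of hg19 except where the minus strand is named.
ZNF57, chr19:2900859-2900888: cttagagattgTCCAATCAgggcgccgctt
ZNF627, chr19:11708192-11708221: atgtcaccctaTCCAATCAggggcgctggg
ZNF700, chr19:12035846-12035875: ctagtatttcaTCCAATCAgaggtgctggg
ZNF433, minus strand of chr19:12146541-12146570: ccggcgcttcgTCCAATCAggggcgctggg
ZNF90, chr19:20188715-20188744: cttaagcattaTCCAATCAgggacgctggg
ZNF431, chr19:21324744-21324773: tttaaacgttaTCCAATCAgcgacgctagg
ZNF43, minus strand of chr19:22034937-22034966: ctggagctttaTCCAATCAgtggcgctggc

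The word CCGGAAGC, an extension of the ETS core, joined cluster 4 with cluster 8. It was found in the promoters of 29 of 37 members of cluster 4 and 22 of 39 of cluster 8, and in 18 of the other 164 members. At the summits it was present at 17 of 134 member peaks (12.7%), 3.64% of the others and 4.23% of all. More unbound than bound members carried it in the promoter, 40 of 113 (35.4%, 27.2 to 44.6) against 29 of 127 (22.8%, 16.4 to 30.9). The bases after the word vary within cluster 4, where ZNF101, ZNF682 and ZNF43 carry others than the examples printed. These examples from cluster 4 (the first 3) and cluster 8 differ from each other after the word, which is in capitals.
ZNF66, minus strand of chr19:20959075-20959104: ccccgccaaatCCGGAAGCcgtcctgttca
ZNF431, minus strand of chr19:21324807-21324836: cccgccacatcCCGGAAGCcgtcctgtccg
ZNF724, chr19:23433197-23433226: cccgccaaatcCCGGAAGCcgccctgtccg
ZNF611, minus strand of chr19:53238275-53238304: ttaacgcaaacCCGGAAGCggatcgggtgg
ZNF600, minus strand of chr19:53290006-53290035: cgcgcacaaacCCGGAAGCggatcgcgtgg
ZNF845, chr19:53836995-53837024: ttcgcgcaaacCCGGAAGCggatcgcatgg

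A further family of words belonged to the long arm. TCTGGGAA was in 46 member promoters, with 18 of 23 in cluster 7, 13 of 24 in cluster 6 and 3 of 5 in cluster 5, against 67 of 1240 other promoters (5.40%). AATGTAGT was in 44 member promoters, with 19 of 41 in cluster 10 and 12 of 24 in cluster 6, and in 18 of 1240 others (1.45%). In clusters 1 to 4 the counts were 2 and 0 of 80. At several genes both words overlap and form a longer common stretch, which also lies beside the strongest ZNF331 summit. Of the members with TCTGGGAA in the promoter 31 of 46 were bound, and of those with AATGTAGT 27 of 44. Within clusters 5 to 10 the counts were 28 of 42 (66.7%) and 26 of 43 (60.5%), beside 58.8% of all members there. Both words were chosen from windows at bound summits. Capitals mark AATGTAGT in these 5 stretches, and the bases before it show TCTGGGA in each.
ZNF260, minus strand of chr19:37019585-37019614: gccttctgggaAATGTAGTtcagcgccacg
ZNF850, chr19:37263778-37263807: atcctctgggaAATGTAGTccagagcccga
ZNF829 and ZNF568, chr19:37406986-37407015: gccctctgggaAATGTAGTccagagcggga
ZNF331, minus strand of chr19:54024131-54024160: ggcctctgggaAATGTAGTccataacccgg
ZNF444, chr19:56652322-56652351: gcattctgggaAATGTAGTccaaagcctgt

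In cluster 7 a variant with ATTCTGGG was carried by 13 of 23 promoters, and the word was in 20 of 240 member promoters and 25 of 1240 others (2.02%). Of the 20 members with it 15 were bound, though the word was chosen from bound windows. ZNF224, a repressor of aldolase A transcription, had 2 copies within 100 bp of a MAX summit of fold enrichment 10.27. ZNF225 had 2 copies as well, and the neighbouring genes hold the same run of bases, shown with the word in capitals on the plus strand.
ZNF230, chr19:44507047-44507076: tgaaccggggaATTCTGGGaagtggagtcc
ZNF222, chr19:44529419-44529448: gagtccggggaATTCTGGGaagtggagtcc
ZNF224, chr19:44598401-44598430: ggtcccagggaATTCTGGGaagtgtagtcc
ZNF225, chr19:44617458-44617487: gatcccagggaATTCTGGGaagtgtagtcc
ZNF226, chr19:44669186-44669215: agtgctgtggaATTCTGGGaagcgtagtcc

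Duplicated sequence limits how reads can be placed. Of the 240 member promoters, 40 held at least 1 word of 51 bases, the tag length in the headers, that occurs again on chromosome 19, and 20 of these genes were bound. Among the 200 members without such a repeat 107 were bound (53.5%, 46.6 to 60.3), and among 1121 other genes without one 490 (43.7%, 40.8 to 46.6). The shares of the other genes were more sensitive to this, since only 15 of 119 with a repeat were bound. Copies on other chromosomes were not counted.

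The partners through which KRAB zinc finger proteins repress were looked up in the same way. Of 23 genes of this machinery 16 had a MAX peak at a TSS (69.6%, where 36.4% of all genes did), with fold enrichments from 3.92 to 60.8 and a median of 12.3. The list is short, and the promoter CpG of its genes was not taken into account. In the top CpG tertile of chromosome 19, 66.9% of the non-member genes were bound. TRIM28, the corepressor that KRAB domains recruit, lies on chromosome 19 and had a fold enrichment of 7.93 with a pileup of 15. TASOR, a subunit of the HUSH silencing complex, had 60.8, the highest value at any coding TSS, and SETDB1 had 11.24. CHD3, a chromatin remodeller of the NuRD complex, was the only listed gene with a BMAL1 peak, at a fold enrichment of 6.69 beside 14.91 for MAX.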

How the data were processed

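Per the submitters' notes and the study's methods, the authors aligned reads to hg19 with BWA 0.6.2 and called peaks with MACS2 2.0.9, BMAL1 and MAX separately, against the same input. In the deposited lists the pileup is a signal, the height of fragments extended to 300 bp. The deposited fold enrichment is the ratio of pileup to local input background, and -log10 p-values and -log10 q-values come from the authors' caller. All listed peaks were kept, although the methods name a cutoff of 1e-08 and the headers 1e-05. Duplicates were limited to 2 tags per position for BMAL1 and 1 for MAX.

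Genes, TSSs and sequence came from GENCODE release 44 mapped to GRCh37, the assembly hg19 names, with 1 canonical TSS per gene for promoter measures. The 9 ZNF genes with a letter after the number or of read-through type were counted with the other genes. A peak at a member and at another gene counted with the members for E-boxes. Intervals are Wilson 95% for shares and binomial order-statistic for medians; with 1 library per antibody no significance test was made. Named genes were those at the 12 strongest peaks, those with the 5 lowest fold enrichments and those with the 5 E-boxes closest to summits. Also named were members with several peaks, in the clusters with most and fewest bound members, or at the edge of the 1 kb limit. Members, lists and rules were chosen with earlier results of these data known. Assignment and motif steps were tested on simulated data. The tools were pysam 0.24.0, pandas 2.3.3 and scipy 1.17.1 in Python 3.11.15, with numpy 2.4.6, and figures used matplotlib 3.10.9. Protein features of the members were not analysed here.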

Additional observations from a re-analysis of the deposited data

How the results depend on the processing

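Over 60 recalculations of the 8 main values, 38 stayed within the interval (or 1.5 times the count) of the reported value and 22 moved beyond it. The 22 include medians of -log10 p and of pileup, 2 for each group of genes. These were set against the interval of the median fold enrichment, a different measure, so they say nothing about its stability. The other 4 alternatives of the median fold enrichment stayed within the interval in each group. The number of ZNF genes with a BMAL1 peak was 0 in all 7 of its alternatives. The share of ZNF genes with a MAX peak moved to 27.5% at a -log10 p of 12 or more, to 64.6% in the highest CpG tertile and to 35.7% in the lowest. For the other genes it moved to 28.0%, 66.9% and 11.4% in the same settings, to 30.9% with summits within 300 bp, 37.2% with any base of the peak within 300 bp, 37.8% with coding transcripts only, 33.8% with the canonical TSS only, 31.4% without a neighbouring coding TSS and 43.7% without repeated promoter words. Members kept the higher share in all of these except the p-value of 12 and the highest tertile. The count of other genes with a BMAL1 peak fell to 27 within 300 bp and to 31 at a -log10 p of 12. With the median of -log10 p in place of fold enrichment, members had 12.3 and other genes 14.7, and with pileup 18 and 20.0. CACGTG or CACGCG or CGCGTG together was at 23.9% of member summits and 39.8% of the others, for which CACGTG alone was at 13.3% in 100 bp and 31.9% in whole peaks. The lowest tertile, the repeated words and the treatment of letter-suffixed symbols were added after the data were seen. No paired analysis was possible because there is 1 library for each antibody. Peaks with few fragments limit the weak calls: the median member peak rests on 18.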
